A study of Sus scrofa with 8 samples.

Results

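The miR-10, miR-99/100 and miR-125 families were examined in the livers of young and old pigs. The members were the names of the small RNA-seq table which, without the pig prefix ssc, read miR-10a, miR-10b, miR-99a, miR-99b, miR-100, miR-125a or miR-125b, alone or with an arm suffix. This gave 12 of 888 names, of which 7 carried the prefix and 5 did not. The livers came from female pigs of the indigenous Chinese breed Yanan, all healthy. The young group held 2 sows of 180 days and the old group 2 sows of 8 years. Each sow gave 1 small RNA-seq and 1 rRNA-depleted RNA-seq library, and no batch is named. The young sows had never farrowed, while the old sows came from the end of a long breeding life, so age and breeding history cannot be told apart. The sows are unrelated, and a piece of liver holds several cell types. In such tissue, fewer cells of a type and less RNA per cell cannot be told apart.

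The miR-99/100 miRNAs are relatives of the miR-10 family, and the miR-125 miRNAs are a separate family tied to them by position in the genome. The miR-10 genes lie inside HOX gene clusters, which pattern the body axis of the embryo. The miR-99/100 and miR-125 genes sit in small clusters with a let-7 gene between or beside them (miR-125b comes from both MIR125B-1 and MIR125B-2), and miRNAs of a cluster are commonly cut from a shared primary transcript. A hairpin precursor gives a main arm, which is loaded into the silencing complex, and an opposite arm, which is mostly degraded. The miR-125 family is known as a homologue of lin-4, the miRNA that times development in worms, and miR-99 and miR-100 are known for repressing mTOR signalling.

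In the pig annotation of RefSeq (assembly Sscrofa11.1), the gene order followed this plan for the genes with an entry. MIR125B-2 had no entry, so its place was not seen. MIR125A, MIRLET7E and MIR99B were direct neighbours, as were MIR125B-1, MIRLET7A-1 and MIR100, and MIR99A was followed by MIRLET7C. MIR10A lay between HOXB3 and HOXB5 and MIR10B between HOXD8 and HOXD3, each with another locus between it and 1 of these genes.

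The main arms were present at very different levels. The 7 main arm names were miR-125b-5p, miR-99a, miR-100, miR-125a, miR-10a-5p, miR-99b and miR-10b, in falling order of their mean value over the 4 libraries, and the other 5 names were opposite (3p) arms. Names with no arm suffix were taken as the main arm, which the names themselves do not state. By mean deposited value, with names that repeat the reads of another name counted once, miR-125b-5p ranked 6 and miR-99a ranked 10. Further down, miR-100, miR-125a, miR-10a-5p, miR-99b and miR-10b ranked 47, 58, 65, 123 and 171. The opposite arms ranked from 188 (miR-99a-3p) to 758 (miR-10b-3p). The miRNA reads numbered from 8715516 to 10438212 per library when names that repeat the reads of another name were counted once, and none of the members was such a repeat. A read is here the step in which the deposited values of a library rise. In total, such reads outnumber the clean reads that the study gives for its small RNA libraries. Whether a read was counted under several names or a step is not 1 read cannot be told apart here. Shares, RPM and counting intervals rest on these steps. The members held 4.72% and 5.44% of these reads in young livers against 5.26% and 8.82% in old livers, so that old replicate 2 stood above the other libraries. Levels are given as RPM, the reads of a name per 1000000 miRNA reads of its library with repeats counted once, and are not corrected for length, which varies little among mature miRNAs.

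In order of level, miR-125b-5p (24554 to 59039 RPM) was above miR-99a (16207 to 22295 RPM) without overlap. The next were miR-100 (1272 to 2697 RPM), miR-125a (679.8 to 2459 RPM) and miR-10a-5p (726.7 to 1369 RPM), whose ranges overlapped over the 4 libraries. Within each library miR-100 was above both, whereas miR-125a and miR-10a-5p changed places. Below them, miR-99b (94.0 to 282.3 RPM) was above miR-10b (42.5 to 124.9 RPM) in every library.

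**Figure D1:**
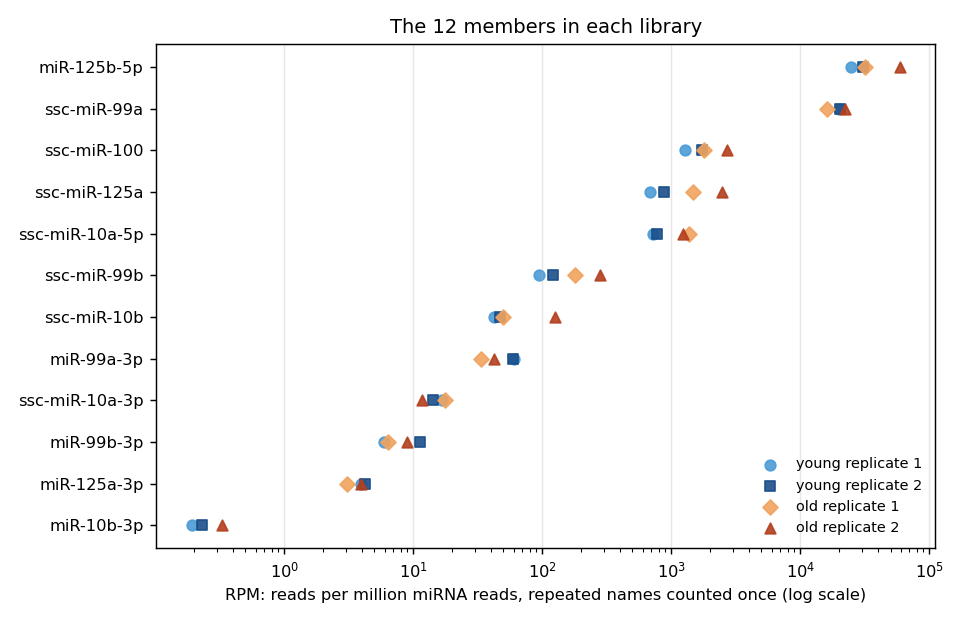
RPM (log scale) of the 12 members in each library, with 1 point per library and the names ordered by mean deposited value. The points span from below 1 RPM for miR-10b-3p, which had no read in old replicate 1, to 59039 for miR-125b-5p in old replicate 2.

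The miR-125 family held the largest share of the members' reads. It took 2.52% and 3.12% of the miRNA reads in young livers against 3.30% and 6.15% in old livers, and nearly all of this was miR-125b-5p. The miR-99/100 family took 2.12% and 2.23% in young livers against 1.82% and 2.53% in old livers, and the age groups overlapped. The miR-10 family took 0.0786% and 0.0831% in young livers against 0.144% and 0.136% in old livers, which did not overlap.

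**Figure D2:**
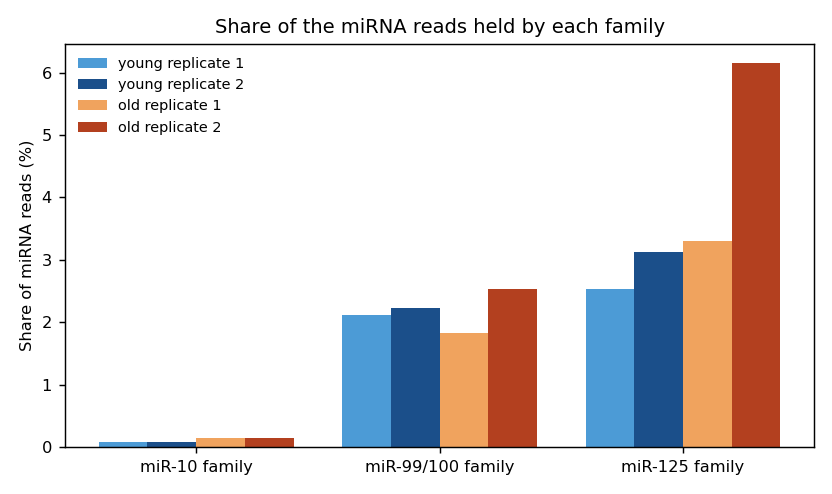
Share of the miRNA reads (%) held by the 3 families, with 1 bar per library. The miR-125 bar of old replicate 2 reaches 6.15%, above the other libraries at 2.52% to 3.30%, and the miR-99/100 bars of young and old livers overlap.

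Compared with the young group, none of the members passed the thresholds of the old group vs. young group comparison. The test was that of limma, fitted to log2(value + 1) of the 867 names above 0 in at least 2 libraries, which all 12 members were, with an adjusted p under 0.05 and an absolute log2 fold change above 1. These thresholds were passed by 0 of 867 names (0.0%), although 103 names (11.9%) had an unadjusted p under 0.05, and no member was among those. With the exact test of edgeR on whole reads, 26 names (3.0%) passed and again none of the members, of which 3 of 12 had an unadjusted p under 0.05 (miR-125a, miR-99b and miR-99a-3p), beside 13.3% of all names. In the limma fit the median log2 fold change of all names was 0.18. Relative to it, the main arms other than miR-99a had log2 fold changes from 0.42 (miR-100) to 1.15 (miR-125a), while miR-99a was at -0.23 and the opposite arms above 3 reads were between -0.82 (miR-99a-3p) and -0.24 (miR-10a-3p).

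The deposited values of 5 members were higher in both old livers than in both young livers, namely miR-10a-5p, miR-99b, miR-100, miR-125a and miR-125b-5p. That is 5 of 12, where 28.3% of all names had this pattern. In the opposite direction there was 1 member, miR-99a-3p, where 16.1% of all names were lower without overlap. In RPM, miR-10b joined the first group, giving 6 of 12 against 28.6% of all names, and miR-99a-3p was again the 1 lower member, against 21.0%. The reason for showing both scales is that 1 read was worth 1.33 deposited units in young replicate 1 and 0.962 in young replicate 2, a ratio of 1.39, with 1.14 and 1.19 in the old libraries. The deposited values summed to between 11220895 and 18862240 per library, and the total to which they were scaled is not given in the sources used here. RPM and ratios within a library do not carry this difference.

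The largest fold change was that of miR-125a, the less abundant member of the miR-125 family. Its deposited values were 9466 and 7326 in young livers against 16418 and 26690 in old livers. In RPM it was at 679.8 and 874 in young and 1465 and 2459 in old livers, so both old livers were above both young ones. The log2 fold change was 1.33 (SE 0.61, n = 2 per group, adjusted p = 0.437, limma). The exact test of edgeR gave 1.16 (p = 0.00886, adjusted p = 0.145).

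Its relative miR-125b-5p was the most abundant member, with 341904 and 254594 in young livers against 352769 and 640804 in old livers as deposited values. In RPM, these were 24554 and 30360 against 31486 and 59039. The first old liver was close to the second young liver, and old replicate 2 was far above the rest. The log2 fold change was 0.69 (SE 0.63, adjusted p = 0.719, limma), and it was 0.26 without old replicate 2 and 1.12 without old replicate 1.

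Neighbouring miR-125a in the genome, miR-99b is a minor member of the miR-99/100 family. It had deposited values of 1309 and 1012 in young and 2021 and 3064 in old livers, or 94.0, 120.7, 180.3 and 282.3 RPM. The groups did not overlap, and the log2 fold change was 1.11 (SE 0.60, adjusted p = 0.517, limma). The exact test of edgeR gave 0.94 (p = 0.0343, adjusted p = 0.328).

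By contrast, miR-99a, the main member of that family, had deposited values of 275369 and 170907 in young livers against 181587 and 241991 in old livers. On this scale the old values lay within the range of the young ones. In RPM, the young livers were at 19776 and 20380 and the old livers at 16207 and 22295, on either side of the young ones. The log2 fold change on the deposited values was -0.05 (SE 0.61, adjusted p = 0.983, limma). The SE was far larger than this value. The sign turned with the scaling, to 0.04 after quantile normalization.

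For miR-100, which shares a cluster with a miR-125b gene, the deposited values were 17714 and 14394 in young livers against 19919 and 29277 in old livers. In RPM it was at 1272 and 1716 in young and 1778 and 2697 in old livers, with a gap between the groups that was small beside the spread within them. The log2 fold change was 0.60 (SE 0.60, adjusted p = 0.740, limma) and 0.32 without old replicate 2. The mature miR-99a and miR-100 are nearly identical, as are miR-10a and miR-10b, and how reads that match both were assigned is not given in the sources used here, so values of such pairs are uncertain where they share reads.

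In the miR-10 family, miR-10a-5p was the main member, with deposited values of 10118 and 6454 in young livers against 15339 and 13303 in old livers. In RPM, the young livers were at 726.7 and 769.7 and the old livers at 1369 and 1226, and the groups were further apart than the libraries within them. The log2 fold change was 0.82 (SE 0.60, adjusted p = 0.636, limma) and 0.50 without young replicate 2.

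The other miR-10 member, miR-10b, had 592 and 393 in young livers against 556 and 1356 in old livers as deposited values. Here old replicate 2 alone stood out. Its log2 fold change was 0.85 (SE 0.68, adjusted p = 0.667, limma), and 0.21 without old replicate 2.

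The opposite arms did not follow the main arms. Reads of miR-99a-3p numbered 629 and 521 in young livers against 331 and 385 in old livers, and its log2 fold change on the deposited values was -0.64 (SE 0.61, adjusted p = 0.726, limma). Reads of miR-10a-3p numbered 174 and 123 in young and 175 and 107 in old livers, which overlapped. Reads of miR-99b-3p numbered 62, 98, 63 and 82 and those of miR-125a-3p numbered 41, 37, 30 and 36, in the order young replicates 1 and 2 and old replicates 1 and 2. The log2 fold changes of these 3 were -0.06, -0.08 and -0.20, each smaller than its SE (0.65, 0.59 and 0.60). With 2, 2, 0 and 3 reads, miR-10b-3p was at or under 3 reads in every library, the level taken as the limit of detection, and no fold is given.

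The names with a locus number, miR-125b-1-3p and miR-125b-2-3p, lie outside the rule but are the opposite arms of miR-125b. Reads of miR-125b-2-3p were 1340 and 1292 in young and 1288 and 1395 in old livers, nearly equal throughout. Reads of miR-125b-1-3p were 79 and 86 in young and 60 and 36 in old livers, lower in both old livers.

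**Figure D3:**
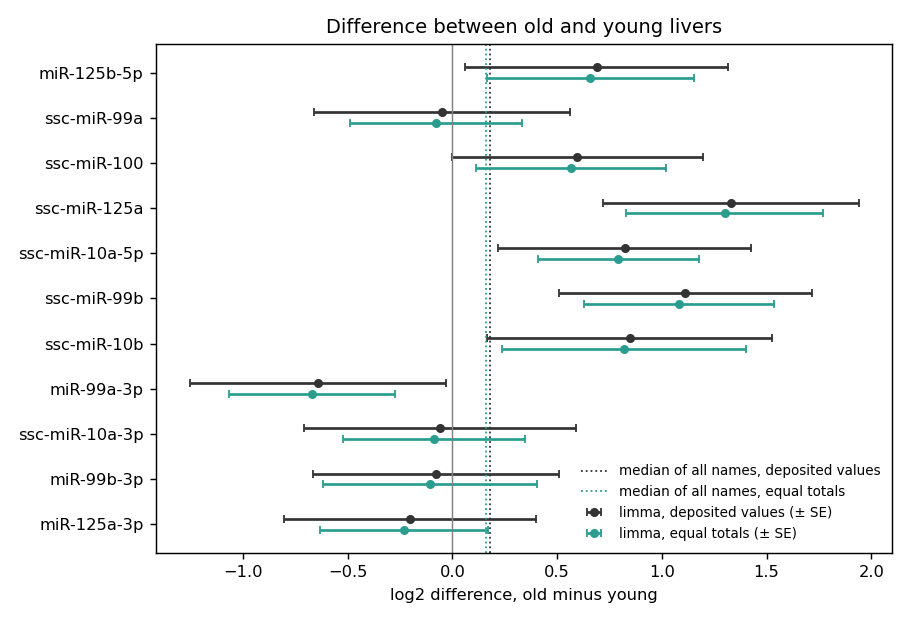
Log2 difference of the old minus the young group for the members with more than 3 reads in a library (points, with SE bars) on the deposited values and after scaling the libraries to equal totals with repeats counted once, from limma on log2(value + 1). Dotted lines mark the median of all names, 0.18 and 0.16, and the main arms other than miR-99a lie to the right of them on both scales.

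Main and opposite arms come from the same precursor, so their ratio within a library does not depend on the scaling between libraries. These ratios were taken after the reads had been seen. The ratio of miR-125a to miR-125a-3p was 173 and 206 in young livers against 481 and 623 in old livers. Its 95% intervals, from the counting error of the reads alone, ran from 127 to 241 and from 149 to 292 in the young livers, and from 337 to 714 and from 450.1 to 890.3 in old livers. Neither of the old intervals reached a young one.

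The ratio of miR-99b to miR-99b-3p was 15.8 and 10.7 in young livers against 28.2 and 31.4 in old livers. For miR-10a, the ratio of the 5p to the 3p arm was 43.6 and 54.5 in young livers against 77.1 and 105 in old livers. For miR-99a, it was 328 and 341 in young livers against 482 and 528 in old livers. All 4 pairs were thus higher in both old livers than in both young ones, and old replicate 2 had the highest ratio of each.

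For miR-125b-5p, the denominator was the sum of the 3p reads of both loci. This ratio was 181 and 192.02 in young livers against 230.2 and 377 in old livers, 1.58 times higher in the old group by geometric means. The main arm differed between libraries far more than that sum.

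**Figure D4:**
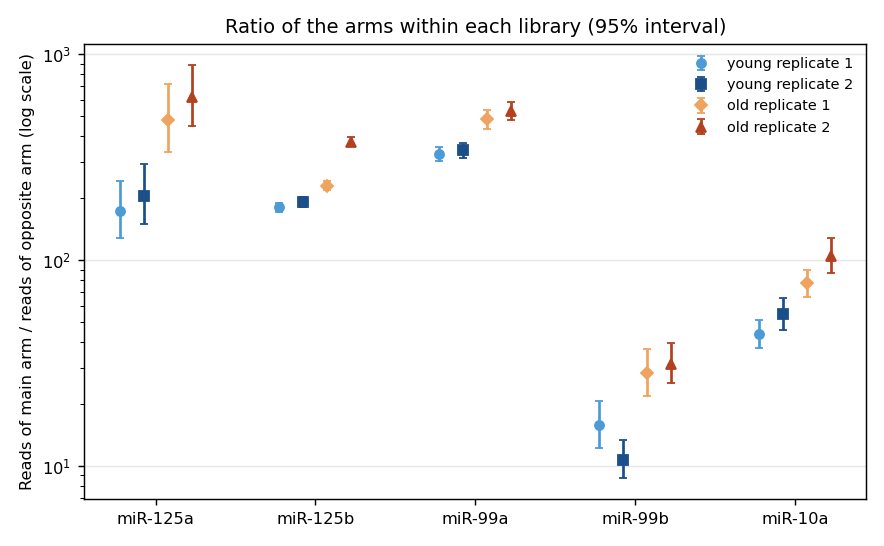
Reads of the main arm over reads of the opposite arm (log scale) in each library for 5 miRNAs, with 95% intervals of the counting error. Both old livers lie above both young livers for each miRNA, from 173 and 206 to 481 and 623 for miR-125a, and for miR-125b the 3p reads of both loci were summed.

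Over all miRNAs with both arms above 0 in the 4 libraries, 134 pairs could be compared with limma on the log2 ratio. A ratio higher in old livers without overlap was found in 37 pairs (27.6%) and in 4 of 4 member pairs. An unadjusted p under 0.05 with a higher ratio was found in 18 pairs (13.4%), again with 4 of 4 member pairs. This count was 1 of 4 without young replicate 1 (miR-99b), without young replicate 2 or without old replicate 2 (miR-125a in both), 3 of 4 without old replicate 1 and 2 of 4 with the replicate block. After adjustment, 0 of 134 pairs (0.0%) were under 0.05. The median log2 difference of all pairs was 0.01.

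For miR-125a the log2 difference of the ratio was 1.53 (SE 0.25, adjusted p = 0.0874, limma), and it ranked 9 from the largest of the 134. It was 1.19 for miR-99b (SE 0.29, adjusted p = 0.140, limma) and 0.88 for miR-10a (SE 0.28, adjusted p = 0.181, limma). It was 0.59 for miR-99a (SE 0.19, adjusted p = 0.181, limma). Without old replicate 1, the adjusted p of miR-125a was 0.0476 and 26 pairs were called, and without any other library none was.

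**Figure D5:**
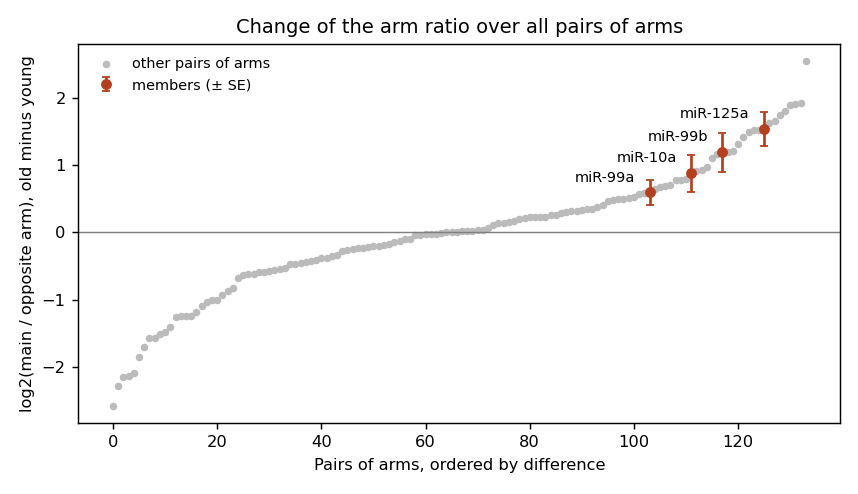
Log2 difference (old minus young) of the arm ratio for 134 pairs of arms, ordered by size, with the 4 member pairs marked with their SE. The members lie on the upper side at 0.59 to 1.53, while the median of all pairs is 0.01.

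The balance of members within the families was described by ratios within each library, with no test and no background for such ratios. For each read of miR-125b-5p there were 0.0277 and 0.0288 reads of miR-125a in young livers against 0.0465 and 0.0417 in old livers. For each read of miR-99a there were 0.00475 and 0.00592 reads of miR-99b in young livers against 0.0111 and 0.0127 in old livers, 2.24 times more by geometric means. For miR-100 over miR-99a, the ratio was 0.0643 and 0.0842 in young and 0.110 and 0.121 in old livers. These ratios were higher in both old livers than in both young ones. The ratio of miR-10b to miR-10a-5p was 0.0585 and 0.0608 in young and 0.0362 and 0.102 in old livers, which overlapped.

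Neighbours in the genome were also compared by their ratio within each library, with no test. In the cluster of miR-125a, let-7e and miR-99b, miR-125a over miR-99b was 7.23 and 7.24 in young livers against 8.13 and 8.71 in old livers. This range was narrow, and both old livers were above both young ones. The ratio of miR-125a to let-7e-5p was 0.777 and 0.803 in young livers against 1.09 and 2.01 in old livers, higher in both old livers. Reads of let-7e-5p itself numbered 9135, 9480, 13286 and 11149.

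In the cluster with miR-100, the ratio of miR-125b-5p to miR-100 was 19.3 and 17.7 in young livers against 17.7 and 21.9 in old livers, and the groups overlapped. The ratio of miR-125b-5p to miR-99a was 1.24 and 1.49 in young and 1.94 and 2.65 in old livers, which did not overlap. In the cluster of miR-99a and let-7c, let-7c-5p over miR-99a was 0.197 and 0.215 in young livers against 0.300 and 0.438 in old livers. Several let-7 genes give the same or nearly the same mature sequence, as both miR-125b genes do, so a mature miRNA cannot be assigned to 1 locus.

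The name whose pattern over the 4 libraries was most like that of miR-125b-5p was let-7c-5p. Likeness was the Euclidean distance between the centred log2(value + 1) of 2 names, over the 300 names outside the families with a mean value of at least 100, and rests on 4 libraries that share their depth. The distance was 0.142 for let-7c-5p, 0.150 for miR-193b-5p, 0.195 for miR-15b, 0.240 for miR-455-3p and 0.252 for miR-145-5p. Among the members, miR-100 was nearest at 0.251, with 4 of the 300 names closer, and miR-99a was at 0.824, with 79 closer. Like miR-125b-5p, let-7c-5p was highest in old replicate 2, at 89177 reads against 40628, 38227 and 47912.

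The miRNAs of cell types were measured beside the members. The hepatocyte list (miR-122, miR-192 and miR-194) summed to between 415006 and 455061 RPM in the 4 libraries, the largest of the lists, and was lower in both old livers. The mesenchymal list (miR-143, miR-145, miR-199a, miR-199b and miR-214) was at 54776 and 65842 in young and 68694 and 56639 in old livers, which overlapped. The endothelial list (miR-126) was highest in old replicate 1, at 16737 against 7705 to 8999 in the others. Other lists were higher in both old livers than in both young ones. The leukocyte list (miR-142, miR-150 and miR-223) had 1407 and 2223 RPM in young and 4583 and 2351 RPM in old livers, with 3 of 5 names higher without overlap in deposited values, where 28.3% of all names were. The muscle list (miR-1, miR-133, miR-206 and miR-499) had 173 and 158 RPM in young and 485 and 930 RPM in old livers, with 5 of 7 names higher. The list of biliary and other epithelia (the miR-200 family) had 629 and 664 RPM in young and 756 and 1617 RPM in old livers, with 3 of 7 names higher. The last 2 were highest in old replicate 2, the library in which miR-125b-5p, miR-125a, miR-100, miR-99b and miR-10b were highest too. Of the mesenchymal names, 1 of 10 was higher and 3 were lower without overlap (16.1% of all names were lower), and of the hepatocyte names 1 of 6 was higher and 1 lower. The erythroid list had 3831 and 2829 in young and 2962 and 1712 in old livers. The part of these cells in the values of the members was not tested.

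Cell markers were also read from the mRNAs of the same livers, in CPM without correction for length. These values were used as deposited, and other scalings of the mRNAs were not tested. The 7 measured hepatocyte genes summed to 46950 and 52582 CPM in young and 32877 and 38818 CPM in old livers, a sum that was mostly albumin. With an unadjusted p under 0.05 in limma, 1 of 7 was lower (APOB), where 8.93% of all mRNAs were. ALB and APOB were lower without overlap, a pattern not counted over all mRNAs. The other 5 overlapped, with log2 fold changes from -1.02 (TTR) to 0.23 (APOA1). Of 4 macrophage genes, 2 had an unadjusted p under 0.05 and were higher (6.78% of all mRNAs did), and the whole list summed to 50.9 and 50.1 CPM in young and 85.0 and 133.7 CPM in old livers. The endothelial list, 4 genes, had 39.4 and 35.5 CPM in young and 65.7 and 39.5 CPM in old livers, so that old replicate 2 was level with the young livers. Its genes went opposite ways. In old replicate 1, LYVE1 (36.5 CPM) and PECAM1 (23.8 CPM) were at their highest, and KDR (2.26 CPM) and TEK (3.14 CPM) at their lowest. Without overlap, PECAM1 was higher and TEK lower in old livers, while LYVE1 and KDR overlapped, and none had an unadjusted p under 0.05. The sums of the lists of stellate cells and fibroblasts (13.9 to 52.5 CPM), cholangiocytes (0.278 to 1.27 CPM) and lymphocytes (2.77 to 5.41 CPM) overlapped between the age groups. Of their genes, CD8A and SOX9 were higher and CD79B lower in old livers without overlap, and the others overlapped. Skeletal muscle was represented by ACTA1 alone, at 0.016 to 0.863 CPM. Their part in the miRNA values was not tested.

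The measured HOX genes around the miR-10 genes were hardly detected, and HOXD8 had no matched symbol. HOXD3 and HOXD4 were at 0 CPM in every library. HOXB3 had 0 and 0 CPM in young and 0.049 and 0.097 CPM in old livers, HOXB4 had 0.033 and 0 against 0.097 and 0.306 CPM, and HOXB5 had 0 and 0.231 against 0.016 and 0.070 CPM. By comparison, miR-10a-5p ranked 65 among the miRNAs of the same livers.

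None of the reported targets of the families passed the adjusted threshold. The targets are known from other species and cells, and were not predicted for the pig here. Of 26 targets tested, 3 had an unadjusted p under 0.05 and were higher in old livers, where 6.78% of the 16898 mRNAs tested did, and 0 were lower, where 8.93% did. Without old replicate 2 these counts were 3 and 2, and with the replicate block 2 and 1. No mRNA passed the adjusted threshold with limma, although 2654 had an unadjusted p under 0.05. The study itself tested mRNAs with edgeR and reported some past its own thresholds. No test of edgeR was run on mRNAs here, so how far the count depends on the test was not seen. The median log2 fold change was 0.23 over 5 of 8 listed miR-10 targets, 0.08 over 8 of 12 miR-99/100 targets and 0.10 over 13 of 18 miR-125 targets (the others had no matched symbol or too few values above 0), beside -0.02 over all mRNAs. These medians depended on single libraries. When 1 library was left out they ran from 0.07 (without old replicate 2) to 0.20 for miR-10, from 0.13 to 0.21 (without young replicate 1) for miR-99/100, and from 0.04 (without young replicate 2) to 0.17 (without young replicate 1) for miR-125.

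Among the miR-99/100 targets, FGFR3, a receptor of fibroblast growth factors, had 2.53 and 0.855 CPM in young livers against 13.8 and 14.8 CPM in old livers. Its log2 fold change was 2.58 (SE 0.38, adjusted p = 0.213, limma), with both old livers far above the young ones. MTOR, the kinase at the centre of nutrient signalling, had 1.01 and 1.17 CPM in young and 1.66 and 1.80 CPM in old livers, with a log2 fold change of 0.38 (SE 0.12, adjusted p = 0.300, limma).

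Among the miR-125 targets, ENPEP, the aminopeptidase that cleaves angiotensin II, had 0.359 and 0.243 CPM in young livers against 24.6 and 13.4 CPM in old livers. Its log2 fold change was 3.88 (SE 0.35, adjusted p = 0.213, limma). Both ENPEP and miR-125a were higher in both old livers than in both young ones. Of the old livers, replicate 1 had the higher ENPEP and replicate 2 the higher miR-125a. A link between them was not tested. Of the miR-10 targets none had an unadjusted p under 0.05, and those with the highest means were BCL6, a transcriptional repressor, with 1.49 and 1.54 CPM in the young against 3.49 and 1.82 CPM in old livers, and BTRC, a subunit of a ubiquitin ligase, with 1.32 and 0.670 against 0.471 and 0.849 CPM.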

How the data were processed

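Livers of 2 young and 2 old sows were measured by small RNA-seq and rRNA-depleted RNA-seq and grouped by age from the sample titles. The authors quantified miRNAs with mirdeep2 against miRBase and deposited signal values that they name TPM, which do not sum to a common total. The authors aligned RNA-seq reads to Sscrofa10.2 with TopHat2 (2.0.14), assembled transcripts with StringTie (1.2.3) and deposited values named TPM from Salmon (0.6.0), which are CPM here because each library has 1 step for all genes. Values were whole multiples of that step, within a tolerance of 0.1 read, for 100% of miRNA values and at least 99.94% of mRNA values in each library. Division by the step gave whole numbers, which are called reads here, although a step may not be 1 read. Recovered mRNA reads numbered 22482241 to 37555694 per library. Replicates were not pooled, and lncRNA and circRNA values were not used here.

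Names above 0 in at least 2 libraries were tested with limma 3.58.1 on log2(value + 1) with Benjamini-Hochberg adjustment, which understates changes of low values. The exact and quasi-likelihood tests of edgeR 4.0.16 were run on the whole reads of miRNAs as alternatives. Arm ratios used log2 of reads plus 0.5. Intervals and the limit of 3 reads cover counting error only. Tests were tried on simulated data. Symbols were known for 11654 of 21607 mRNA identifiers. Values in each library were given for members with a mean of at least 1. Other names were the let-7 cluster partners, the HOX neighbours, targets with an unadjusted p under 0.05 (or the 2 with the highest mean), and the 5 names most alike in pattern. Members and lists were chosen with earlier results of these data known. For miRNAs, alternatives covered pseudocount, filter, scaling, variance model, test, replicate block and leaving out each library. For mRNAs they covered only pseudocount, filter, replicate block and leaving out each library, and for arm ratios also the variance model.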

Additional observations from a re-analysis of the deposited data

How the results depend on the processing

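With 2 libraries per group, differences of the size seen in most members could not be told from the spread. Across the alternatives, 176 fold changes of members were computed, of which 0 passed the thresholds and 8 turned in direction. The median log2 fold change of all names was 0.18 as deposited, 0.16 with equal totals and 0.04 with the median of ratios. The count of miRNAs past the thresholds was 0 in the main limma fit given above. It was 16 with a mean value of at least 10, 7 with a trend in limma and 26 with the exact test of edgeR. That of mRNAs was 2 with a mean of at least 1. That of arm ratios was 5 with at least 20 reads on the minor arm, 4 with a trend, and from 0 to 26 when 1 library was left out (26 without old replicate 1). The cause was not tested.

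The log2 fold change of miR-99a was 0.045 after quantile normalization and ran from -0.39 to 0.29 when 1 library was left out. Over the same omissions, miR-10a-3p ran from -0.54 to 0.42, miR-99b-3p from -0.30 to 0.14 and miR-125a-3p from -0.51 to 0.10. The family sums ran from 0.50 to 1.15 for miR-10, from -0.32 to 0.34 for miR-99/100 and from 0.28 to 1.14 for miR-125. For miR-99a-3p the range was -1.01 (without young replicate 2) to -0.27 (without young replicate 1), for miR-10b 0.21 to 1.49, and for miR-125a 0.98 to 1.68.

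The replicate numbers name different animals, and deviations of same-numbered samples correlated at -0.02 for miRNAs and 0.09 for mRNAs. With the replicate block, 0 miRNAs, 0 mRNAs and 0 arm ratios passed the thresholds, and 89 miRNAs in place of 103 had an unadjusted p under 0.05.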
